A study of Mus musculus with 2 samples.

Results

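Mitochondrial ribosomal protein genes were taken as all nuclear protein-coding genes whose symbol starts with Mrpl or Mrps followed by a digit. Of 78 such genes in the annotation, 77 had an entry in both libraries, 48 of the large subunit (Mrpl) and 29 of the small subunit (Mrps), out of 21461 nuclear protein-coding genes. Mrpl33 was not matched and was not analysed here. The study had 1 group of 2 libraries of total RNA, numbered as biological replicates and prepared from 1 ng of RNA of erythroid progenitor cells (CFU-Ery, dividing precursors of red blood cells). The mice were male C57BL/6J, 5 to 6 weeks old, and the cells were primary. The linked protocol is named as a bone marrow progenitor isolation, and no allele or treatment is given. One donor record covers both libraries in the labels while the biosamples differ, so whether the replicates are separate animals is not stated and their spread may be technical. With 1 group of 2 libraries the smallest p of an exact sign-flip test is 0.5, so values are given per library or as mean ± SD and no test is made.

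The mitochondrial ribosome, or mitoribosome, translates the few proteins encoded by mitochondrial DNA, all of which belong to the complexes of oxidative phosphorylation. Its rRNAs are transcribed in the mitochondrion, while its proteins are encoded in the nucleus, made in the cytosol and imported. Some of these proteins descend from bacterial ribosomal proteins and others occur only in mitoribosomes. Erythroid precursors depend on mitochondria for haem synthesis until they lose them on the way to the red cell.

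The total expected count (reads assigned to entries, which may be fractional) was 143491647 in replicate 1 and 110634458 in replicate 2. Nuclear protein-coding genes held 4717790 and 4093202 of these, because the mitochondrial rRNAs mt-Rnr1 (364721 and 371193 TPM) and mt-Rnr2 (402993 and 376205 TPM) filled most of each library. TPM (transcript abundance scaled by length and by the total of a table) is given as deposited unless called rescaled; rescaled TPM sums to the same total over nuclear protein-coding genes alone, so that 1 TPM became 43.1 in replicate 1 and 37.0 in replicate 2. All 10 erythroid markers examined were at 1 TPM or more in both libraries, with a summed level of 3732 and 4352 TPM. So were all 8 granulocyte and monocyte markers (539 and 734 TPM summed), 5 of 6 macrophage, 3 of 5 B lymphoid and 1 of 3 T and NK markers, and no marker of any list was at 0 in both. No megakaryocyte and no stem and early progenitor marker of 4 each reached 1 TPM in both libraries. That limit equals 43.1 and 37.0 rescaled TPM, so markers below it were not absent. Kit, of the stem and early progenitor list, had 196 and 190 counts (0.43 and 0.36 TPM). The megakaryocyte markers Gp9 (1.53 TPM, replicate 1) and Pf4 (1.21 TPM, replicate 2) passed it in 1 library. What other cells added to the levels below was not tested, and in bulk RNA fewer cells of a type and less RNA per cell cannot be told apart.

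All 77 matched mitochondrial ribosomal protein genes were detected, most of them at a low level within a narrow range. All 77 had a count in both libraries, against 49.8% of all nuclear protein-coding genes. The members held 6140 and 5907 counts in all, with a median of 65 and 58 counts per gene. On the deposited scale 13 of 77 reached 1 TPM in both libraries, against 12.6% of all nuclear protein-coding genes. On the rescaled scale 76 of 77 reached 1, against 44.6% of all, and 56 of 77 reached 10, against 27.2%. A mean expected count of 20 or more was met by 74 of 77, against 42.3%, and 0.5 TPM in both libraries by 34, against 19.8%. At higher limits the members were less frequent than other genes by value: 3 of 77 reached 2 TPM in both libraries, against 7%, and 13 of 77 averaged 100 counts or more, against 24.9%. Counts are not scaled by length, and the median effective length was 911 bases, against 1799 for all nuclear protein-coding genes. The exception at 1 rescaled TPM was Mrps27. The median was 0.47 and 0.57 TPM (20.3 and 21.1 rescaled), close to the 0.53 and 0.57 TPM of the 9078 nuclear protein-coding genes averaging 20 counts or more. The upper quartile stood 3.32 times above the lower quartile in the mean of the libraries, against 6.68 times for those 9078 genes, a narrower band around the same middle. Together the members held 0.233% ± 0.00634 (SD, n = 2) of nuclear protein-coding TPM.

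**Figure D1:**
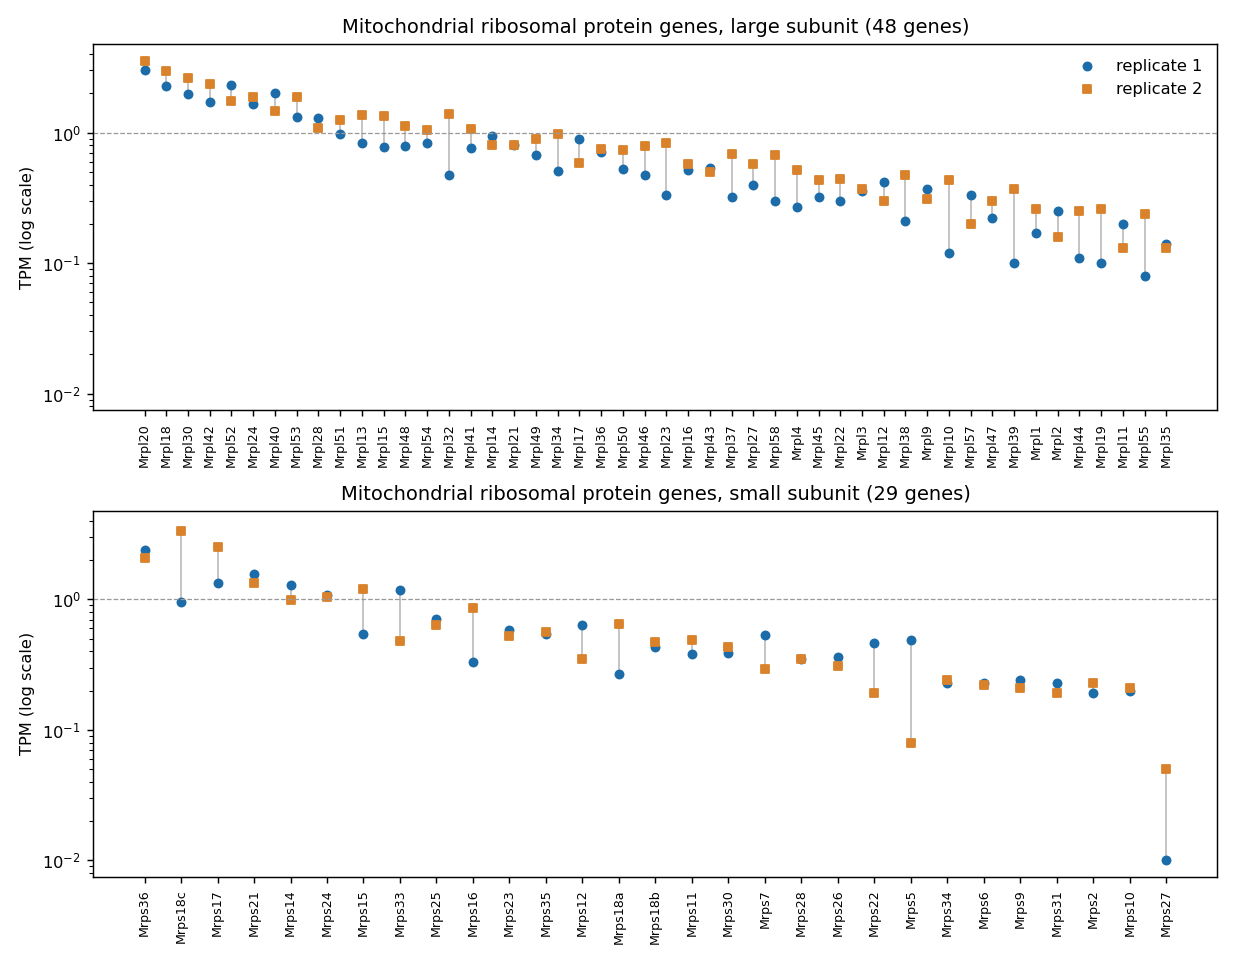
TPM on a log scale of each mitochondrial ribosomal protein gene, ordered by mean TPM within the large subunit (48 genes, upper panel) and the small subunit (29 genes, lower panel). Circles are replicate 1, squares are replicate 2, a grey line joins the libraries of a gene, and the dashed line is 1 TPM; most genes lie between 0.1 and 3 TPM and Mrps27 lies far below the rest.

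The highest members came mostly from the large subunit. Mrpl20 (ENSMUSG00000029066.8, chromosome 4, 155802878 to 155809975, plus strand, GRCm38), a protein of the large subunit with a bacterial counterpart, led with 3.01 TPM in replicate 1 and 3.56 in replicate 2. Mrpl18, which packs against RNA in the central protuberance at the top of the large subunit, followed with 2.28 and 2.96 TPM, and Mrpl30 with 1.98 and 2.60. The next large subunit genes were Mrpl42 (1.71 and 2.35 TPM), Mrpl52 (2.30 and 1.74), Mrpl24 at the rim of the peptide exit tunnel (1.66 and 1.86) and Mrpl40 of the central protuberance (2.01 and 1.47). Both values of Mrpl20 lie above those of the other 6, and among these 6 each overlaps its neighbours in the order. Of the 10 highest members 7 belonged to the large subunit, and of the 20 highest 14, while the large subunit made up 62.3% of all members. The 10 highest held 37.6% of the members' TPM, and 8 of the 10 highest in replicate 1 were among the 10 highest in replicate 2.

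The other 3 of the 10 highest were small subunit genes. Mrps36 (chromosome 13, 100735955 to 100744659, minus strand) stood at 2.38 and 2.08 TPM; its product carries a mitoribosomal name but is known as a component of the 2-oxoglutarate dehydrogenase complex of the citric acid cycle. Mrps18c had 0.96 and 3.33 TPM and Mrps17, a protein of the small subunit body, 1.34 and 2.51. Mrps36 differed little between the libraries, whereas Mrps18c was high in replicate 2 only. Mrps18c and Mrps17 are taken up with their transcripts below.

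At the other end stood Mrps27 (ENSMUSG00000041632.5, chromosome 13, 99344786 to 99415562, plus strand), which encodes a pentatricopeptide repeat protein of the small subunit, a family that binds RNA. It had 2 counts in replicate 1 and 8 in replicate 2, or 0.01 and 0.05 TPM. The next lowest were all large subunit genes. Mrpl35 stood at 0.14 and 0.13 TPM, Mrpl55 at 0.08 and 0.24, Mrpl11 at 0.20 and 0.13, Mrpl19 at 0.10 and 0.26 and Mrpl44 at 0.11 and 0.25. The ranges of these 5 genes overlap, and all lie above both values of Mrps27. Mrpl55 rests on 7 and 19 counts, while Mrpl19 had 64.3 and 128 counts spread over an effective length of 4864 and 4861 bases. The highest member exceeded the lowest 301-fold in replicate 1 and 71.2-fold in replicate 2, ratios that rest on the 2 and 8 counts of Mrps27.

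On the TPM scale the subunits did not differ beyond the spread between libraries. The large subunit had a median of 0.49 and 0.715 TPM and the small subunit of 0.46 and 0.47. The difference of the medians of log2(rescaled TPM + 1), large minus small, was 0.09 in replicate 1 and 0.58 in replicate 2, or 0.33 ± 0.35 (SD, n = 2). On counts not scaled by length, an alternative chosen after seeing the data, the difference was 0.43 and 0.62, or 0.53 ± 0.14, and exceeded the spread. The large subunit held 65.9% and 68.2% of the members' TPM, near its 62.3% of the genes. Members without a bacterial counterpart (31 genes) and members with one (43 genes) had nearly the same median, 0.515 ± 0.0636 and 0.535 ± 0.0636 TPM. Their log2 difference was -0.053 ± 0.0064 (SD, n = 2), and its sign turned with posterior mean TPM (0.023) and with counts not scaled by length (0.024).

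By place in the large subunit, the medians lay between 0.2 and 0.79 TPM. The stalk, which recruits translation factors, was low: Mrpl10 at its base had 0.12 and 0.43 TPM, Mrpl11 the 0.20 and 0.13 given above, and Mrpl12, the stalk protein itself, 0.42 and 0.30. The 4 genes around the peptidyl transferase centre, where peptide bonds form (Mrpl2, Mrpl3, Mrpl16 and Mrpl27), had a median of 0.38 and 0.47 TPM and a range of 0.16 to 0.58. The 7 genes of the central protuberance (Mrpl18, Mrpl38, Mrpl40, Mrpl46, Mrpl48, Mrpl55 and Mrpl58) spread the widest, from 0.08 to 2.96 TPM around a median of 0.47 and 0.79. Among them Mrpl58, a peptidyl-tRNA hydrolase that frees stalled mitoribosomes, had 0.30 and 0.67 TPM. The 6 genes at the exit tunnel and the membrane side (Mrpl17, Mrpl22, Mrpl23, Mrpl24, Mrpl45 and Mrpl47) had a median of 0.325 and 0.515 TPM.

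In the small subunit, the 6 genes of the head (Mrps7, Mrps9, Mrps10, Mrps14, Mrps31 and Mrps35) had a median of 0.385 and 0.25 TPM, with Mrps14 the highest at 1.29 and 0.98. At the decoding centre and mRNA entry, Mrps12 had 0.64 and 0.35 TPM and Mrps5 had 0.49 and 0.08. Mrps2, which was only grouped with them here, lay within that range. The medians of these and the head genes overlapped between libraries. Mrps30 and Mrps18a, named for the small subunit but found in the large subunit by structure, had 0.39 and 0.43 TPM and 0.27 and 0.65 TPM.

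The Mrps18 family has 3 related members, of which Mrps18c was classed here with the bacterial-type members and Mrps18a and Mrps18b with those specific to mitochondria. Mrps18c held the largest share of the family's TPM, 57.8% in replicate 1 and 74.8% in replicate 2. Mrps18b (0.43 and 0.47 TPM) held 25.9% and 10.6%, and Mrps18a 16.3% and 14.6%. In expected counts, without scaling by length, the order differed: Mrps18b had the most in replicate 1 (40 counts against 33 of Mrps18c and 19 of Mrps18a) and Mrps18c in replicate 2 (73 against 61 of Mrps18a and 44 of Mrps18b).

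Mitoribosomal proteins with other symbols stood somewhat higher than the members. Dap3, a GTP-binding protein of the small subunit head, had 1.94 and 1.76 TPM, Chchd1 1.64 and 1.71, and Aurkaip1 1.53 and 1.30. Ptcd3, a pentatricopeptide repeat protein at the mRNA entry, had 0.48 and 0.70 TPM, and Gadd45gip1, a protein of the large subunit, 0.34 and 0.35. Of these 5 genes, 4 lay above the member median in both libraries and Gadd45gip1 lay below it in both.

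The factors that build and serve the mitoribosome had lower median TPM than its proteins in both libraries. Of 26 mitoribosome assembly factor genes, 19 reached 1 rescaled TPM in both libraries, with a median of 6.90 and 7.96 rescaled TPM. Mrm1, a methyltransferase of the large rRNA, was the highest at 1.57 and 1.83 TPM, ahead of Ngrn at 0.76 and 0.79. Rpusd3, a pseudouridine synthase family member, had 0 counts in both libraries, which allows up to 3 counts in each. Ybey, an endoribonuclease, had 0 and 14 counts, at 0 and 0.03 TPM. Of 14 mitochondrial translation factor genes, 10 reached 1 rescaled TPM, with a median of 13.4 and 14.2. In counts, without scaling by length, the translation factors stood above the members, with a median of 81.0 and 66.7 against 65 and 58, at a median effective length of 1838 against 911 bases. The assembly factors stood below them on that scale too, with 35 and 36 counts. Mtrf1l, a release factor, had 0.56 and 1.06 TPM and Slirp, which stabilises mitochondrial mRNA, 0.56 and 0.85. Mrrf, the ribosome recycling factor, had 0.01 TPM in each and Mtrf1 0.05 and 0.02.

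Respiratory chain genes of the nucleus and cytosolic ribosomal protein genes stood well above the members. The 77 nuclear respiratory chain subunit genes had a median of 2.12 and 2.67 TPM, and the members minus these genes gave a difference of -2.15 ± 0.04 (SD, n = 2) in median log2(rescaled TPM + 1). The 85 cytosolic ribosomal protein genes had a median of 15.1 and 19.6 TPM, and the difference was -4.99 ± 0.07. Both gaps exceeded the spread between libraries, with the members lower in 2 of 2. Without scaling by length, in counts relative to all nuclear protein-coding counts, the gaps were -1.52 and -3.90, an alternative chosen after seeing the data. The 13 mitochondrially encoded protein genes, which the mitoribosome translates, had a median of 4923 and 5285 TPM.

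**Figure D2:**
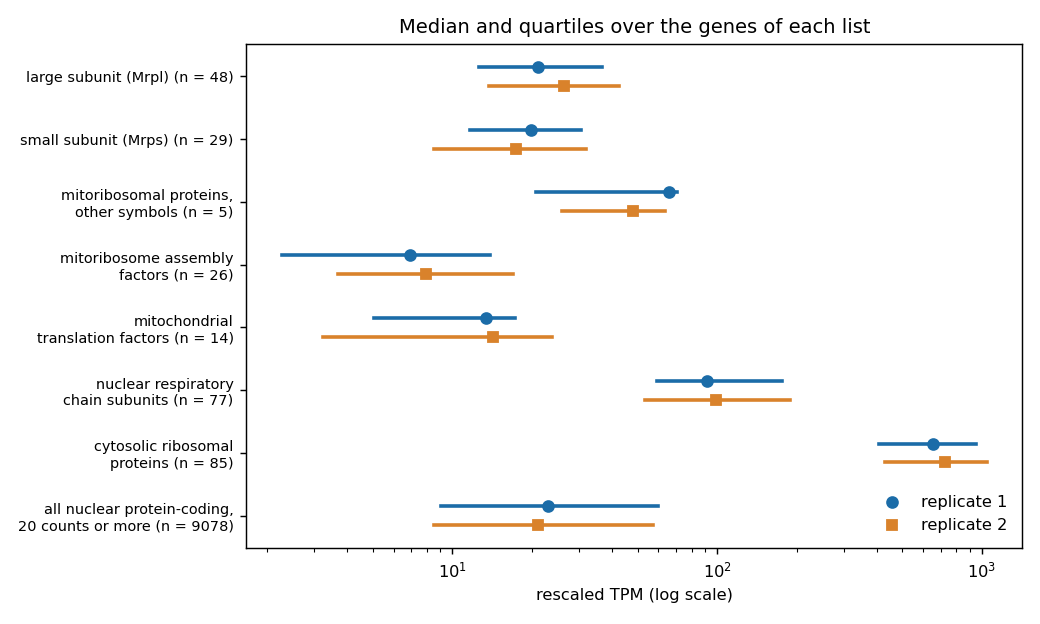
Median (symbol) and lower to upper quartile (bar) of rescaled TPM over the genes of each list, on a log scale, for replicate 1 (circles) and replicate 2 (squares), with the number of genes in parentheses. The subunit medians lie near 20 rescaled TPM, beside all nuclear protein-coding genes with 20 counts or more, and below the respiratory chain (91.5 and 98.8) and cytosolic ribosomal protein genes (651 and 726).

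Members with a longer effective length had a lower level. Across the 74 members averaging 20 counts or more, Spearman's rho of mean rescaled TPM with mean effective length was -0.62, against -0.33 across the 9078 genes. TPM is divided by that length, so the measures share a term, genes are not independent replicates and no p is given. With expected counts in place of TPM rho was 0.23. Mrps25, named here after its values were seen, shows the difference. It had the most counts of all members (447 and 379), an effective length of 4794 and 5767 bases, and 0.71 and 0.64 TPM, rank 31 of 77. Its exons overlap an exon of Nr2c2 (0.58 and 0.80 TPM) on the opposite strand by 3533 bases. Whether counting used strand is not given, so reads of Nr2c2 may be among the counts of Mrps25. Of the 10 highest members by TPM, 6 were among the 10 highest by count.

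Part of the signal was assigned to transcripts that are not annotated as coding. Protein-coding transcripts held 78.9% and 76.2% of the members' TPM, retained-intron transcripts 9.82% and 10.6%, transcripts marked for nonsense-mediated decay (degradation of messages with an early stop) 6.75% and 6.75% and processed transcripts 4.30% and 6.27%. A protein-coding transcript was the most abundant in both libraries for 55 of 74 members, against 78.2% of all nuclear protein-coding genes with 20 counts or more. Of the 74, 73 had such a transcript in the tables, against 99.8%. With 100 counts or more, 12 of 13 members had one on top, against 81.1%. Retained-intron transcripts held over 20% of a gene's TPM in both libraries for 8 of 74 members, against 12.3% of all. The shares of genes with 20 counts or more are near the background. The shares of TPM by transcript type were computed for the members alone, so no background is given for them.

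Counting all 77 members, 19 had another type on top in 1 or 2 libraries. Retained-intron transcripts led in both libraries for 7: Mrps18c, Mrps24, Mrpl21, Mrpl58, Mrpl38, Mrps26 and Mrps5. Nonsense-mediated decay transcripts led in both for Mrps14, Mrpl13, Mrpl32 and Mrpl3, and a processed transcript for Mrpl23. Mrps24 had its whole level, 1.07 and 1.04 TPM, on 1 retained-intron transcript of 700 bases. Mrpl32 (0.47 and 1.40 TPM) has a single transcript in the tables, Mrpl32-201, which the later annotation used for types marks for nonsense-mediated decay; reads of any other transcript of the gene would be counted there. Mrpl23, Mrpl38, Mrps24 and Mrpl32 had 0 TPM on protein-coding transcripts in both libraries.

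**Figure D3:**
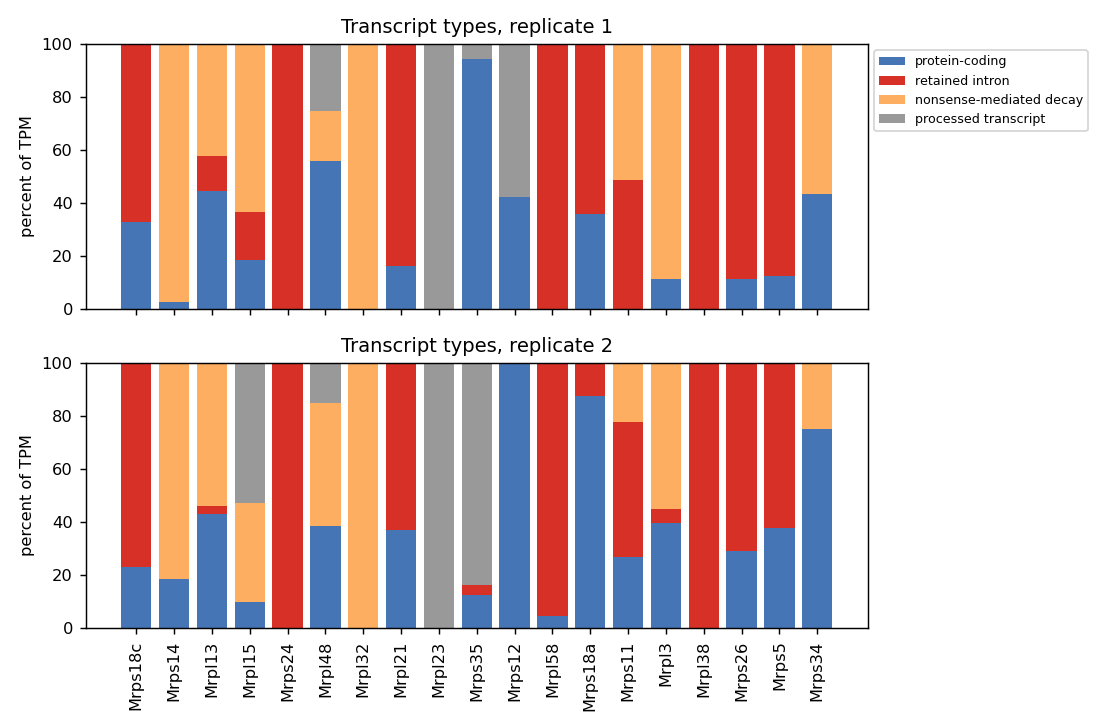
Share in percent of each gene's TPM on protein-coding, retained-intron, nonsense-mediated decay and processed transcripts in replicate 1 (upper panel) and replicate 2 (lower panel), for the 19 members whose most abundant transcript was not protein-coding in 1 or 2 libraries, ordered by mean TPM. Mrps24 is wholly retained-intron, Mrpl32 wholly nonsense-mediated decay and Mrpl23 wholly processed transcript in both libraries, while Mrps35, Mrps12 and Mrps18a change type between them.

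The rank of Mrps18c rested on a short transcript. Mrps18c-205, a retained-intron transcript of 258 bases, held 67.4% and 77.4% of the gene's TPM from 10.5 and 31.95 counts. The coding transcripts of the gene summed to 0.31 and 0.76 TPM, which places it 29th of 77 by coding TPM in place of 5th. The other 9 of the 10 highest members by TPM were also among the 10 highest by coding TPM. Their order was not the same: Mrpl18 led with 2.28 and 2.75 coding TPM, above Mrpl20 with 2.05 and 2.52. Mrps14, the highest of the head genes, moved from rank 14 to rank 67, with 0.03 and 0.18 coding TPM. The top transcript changed between libraries for 19 of 77 members, and 3 of these with 20 counts or more were over 2-fold apart. Mrpl55, below that limit with 7 and 19 counts, also changed and had a log2 ratio of -1.23. With 20 counts or more the top transcript was the same in both libraries for 56 of 74 members, against 75% of all, a share near the background. In Mrps33 the counts were 75 and 48, but a 500-base transcript that held 80.4% of TPM in replicate 1 had 0 counts in replicate 2, where a 1107-base transcript held all. The effective length of the gene was 483 and 968 bases, and its TPM 1.17 and 0.48. In Mrps17 the counts were 214 and 169, and a 305-base transcript with 0 and 15.3 counts held 35.5% of TPM in replicate 2. Its effective length was 1209 and 651 bases and its TPM 1.34 and 2.51, in the opposite order to its counts.

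Most members shared some sequence with other genes, while 11 of 77 had fractional counts. Of the 77, 66 had whole counts in both libraries (within 0.005 counts). In the sense direction, 16 shared no 25-mer (stretch of 25 bases) with another gene's transcripts, and 19 shared over 10% of theirs. Reverse complements were not searched, so overlaps on opposite strands are not in these numbers. Mrps25 and Mrpl46 are among the 16, yet overlap opposite-strand exons of Nr2c2 and Mrps11 by 3533 and 173 bases. A whole count does not show that no reads were shared. The same counts over all nuclear protein-coding genes were not computed. Mrpl23 and its processed pseudogene Mrpl23-ps1 had fractional counts, 17.41 with 40.59 in replicate 1 and 34.03 with 43.97 in replicate 2, which summed to 58 and 78. The pseudogene therefore took more of the reads than the gene in both libraries, and the level of Mrpl23 (0.33 and 0.84 TPM) is uncertain. Mrps5 (74.21 counts) and the pseudogene Gm13328 (1.79 counts) likewise summed to 76 in replicate 1. The pseudogenes Mrpl48-ps, Mrps36-ps1, Mrps36-ps2 and Mrps36-ps3 had 0 counts. Mrpl53 shared 85.2% of its 25-mers with the overlapping gene Gm42688 and Mrps34 35.9% with its neighbour Nme3, and their levels are uncertain for that reason. Exons of 28 members (36.4%) overlapped an exon on the opposite strand, against 24.3% of all nuclear protein-coding genes; whether counting used strand is not given in the sources used here, so reads of those overlaps may not be told apart.

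Between the libraries the share of members apart was near that of all genes when counts were not matched. The median count was 65 and 58 for the members, against 148 and 128 for the 9078 genes. Within each range of counts given below, the members were apart less often than all genes. On the log2(rescaled TPM + 1) ratio, centred on the median of the 9078 genes, 11 of 74 members were over 2-fold apart, against 17.1% of all. Of these, 3 were higher in replicate 1, against 8.72%, and 8 in replicate 2, against 8.33%. Over 1.5-fold apart were 27 of 74, against 35.4%. Across members Spearman's rho between libraries was 0.81 (n = 74), against 0.90 across the 9078 genes, which span a wider range of levels. This compares 2 libraries of 1 group, not conditions.

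Mrps5, a protein at the mRNA entry, was the furthest apart, with 74.21 counts in replicate 1 and 14 in replicate 2 and a log2 ratio of 2.41. Mrps33 (1.38) and Mrps22 (65 and 21 counts, 0.46 and 0.19 TPM, 1.30) followed, although for Mrps33 the counts alone gave 0.43. Towards replicate 2 the furthest were Mrps18c (-1.63), Mrpl39 (28 and 82 counts, 0.10 and 0.37 TPM, -1.54) and Mrpl10 (24 and 70 counts, -1.53). Mrpl32 (-1.39), Mrps16 (0.33 and 0.86 TPM, -1.18), Mrpl23 (-1.15), Mrpl19 (-1.08) and Mrps18a (-1.06) made up the rest. In 10 of the 11 the counts, without scaling by length, were also over 2-fold apart, and the exception was Mrps33.

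Large and small subunit genes leaned to different libraries. Of 47 large subunit genes with 20 counts or more, 31 were lower in replicate 1, with a median log2 ratio of -0.27. Of 27 small subunit genes, 19 were higher in replicate 1, with a median of 0.18. The median over all nuclear protein-coding genes is 0 by construction. A lean was not particular to the members: of 82 cytosolic ribosomal protein genes, 65 were lower in replicate 1 and 17 higher, with a median of -0.18. Of 76 nuclear respiratory chain subunit genes, 39 were lower and 37 higher, with a median of -0.05. No test of the difference between the subunits was made. The exact binomial 95% interval of a gene's counts left out the median ratio of all genes for 29 of 74 members, against 57.9% of all, 8 towards replicate 1 (29.4%) and 21 towards replicate 2 (28.5%). With 100 counts or more it did so for 4 of 13, against 59.1%. Such intervals cover counting error only, and how reads copied from the same molecule by PCR were counted is not given in the sources.

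Members with more counts were less often apart. With 20 to 50 counts 6 of 24 members were over 2-fold apart, against 38.6% of all genes of that depth, and with 50 to 100 counts 5 of 37, against 24.1%. With a mean of 100 counts or more, 0 of 13 members were, against 6.87%; at that depth the 13 comprised Mrps25, Mrpl18, Mrpl51, Mrpl24, Mrps17, Mrpl20, Mrpl40, Mrpl50, Mrpl49, Mrps36, Mrpl30, Mrpl42 and Mrpl13.

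**Figure D4:**
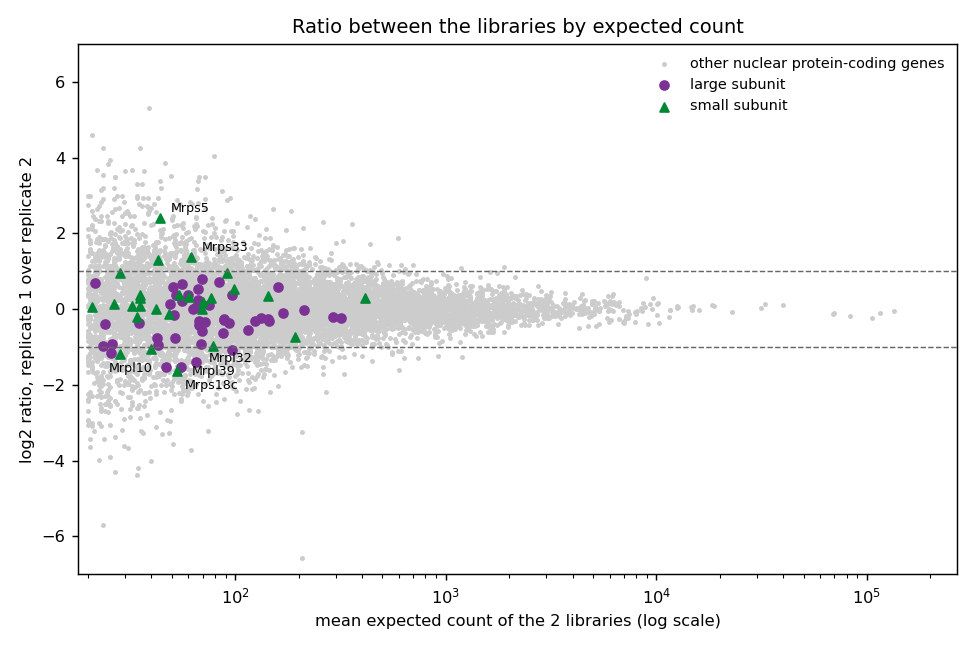
Log2 ratio of rescaled TPM (+ 1), replicate 1 over replicate 2, centred on the median, against the mean expected count of the libraries on a log scale. Large subunit genes are circles, small subunit genes triangles, other nuclear protein-coding genes with 20 counts or more grey points, and dashed lines mark 2-fold; the 11 members outside the lines all average under 100 counts.

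Many members start beside another gene. Of 77 members, 33 (42.9%) have a nuclear protein-coding gene on the opposite strand whose annotated start lies within 1000 bases, against 10.9% of all nuclear protein-coding genes and 18.2% of those with 20 counts or more. The starts lie apart in 18 cases and past each other, so that the transcripts overlap, in 15. Mrpl46 (chromosome 7, 78775236 to 78783531, minus strand) and Mrps11 (78783119 to 78792989, plus strand) are such neighbours of each other, a large and a small subunit gene whose starts lie 412 bases past each other. Mrpl46 had 0.47 and 0.79 TPM and Mrps11 0.38 and 0.49, lower in both libraries. On coding transcripts alone Mrps11 had 0 and 0.13 TPM, against 0.47 and 0.79 of Mrpl46. Exons of the pair overlap by 173 bases, and each gene is entered as a case of its own. Other neighbours include the respiratory chain genes Ndufs6 (beside Mrpl36) and Ndufb5 (beside Mrpl47).

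Neighbours lay on either side of the members' level. The neighbour was higher than the member in both libraries in 12 of 33 cases, lower in both in 15 and on different sides in 6. Mrpl46 and Mrps11 count in both directions, as each is the neighbour of the other. Ncapd2, a condensin subunit gene, stood at 22.7 and 28.2 TPM beside Mrpl51 at 0.97 and 1.25. Fau, which encodes a cytosolic ribosomal protein fused to a ubiquitin-like one, stood at 11.7 and 17.6 TPM beside Mrpl49 at 0.67 and 0.89. At the other end Lrrc46, Apba3 and Oaz3 were at 0 TPM in both libraries beside Mrpl10, Mrpl54 and Mrpl9. Members with such a neighbour had a median of 22.9 and 25.5 rescaled TPM and those without one 16.8 and 20.0. The first group was higher in both libraries, and the difference was not tested.

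**Figure D5:**
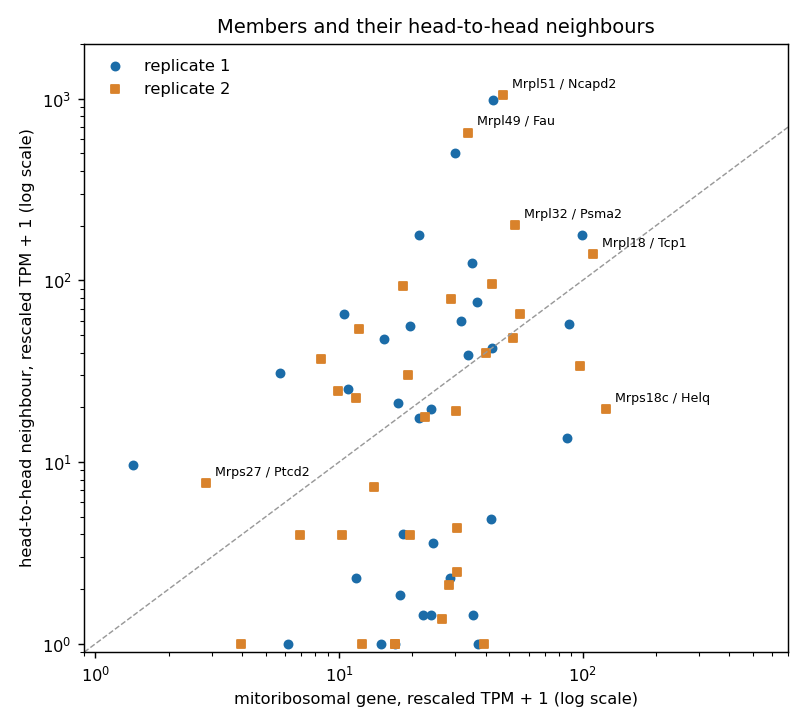
Rescaled TPM + 1 of the 33 members with a head-to-head neighbour (horizontal axis) and of that neighbour (vertical axis), both on log scales, in replicate 1 (circles) and replicate 2 (squares); the dashed line marks equal levels. Members range from 0.43 (Mrps27, replicate 1) to 123 (Mrps18c, replicate 2) rescaled TPM, while neighbours range from 0 to over 1000.

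The start regions of members were searched for short sequence motifs, since their genes lie at a like level. RefSeq promoters (GRCm38.p6, 250 bases before to 50 after each start) matched 68 of 77 members, with 74 promoters, and were compared with 21262 promoters of protein-coding genes of the same length, on both strands. CCGGAAG, the core bound by ETS factors such as GABP, stood in 33.8% of member promoters against 11.6%. AAGATGGCG, bound by YY1, stood in 10.8% against 1.83%, in 6 of 8 cases only past the start. GCATGCGC, the core bound by NRF1, stood in 9.46% against 3.51%. CCAAT, bound by NF-Y, stood in 39.2% against 38.2%, AGATAA, bound by GATA factors, in 13.5% against 9.65%, and TATAAA in 6.76% against 12.6%. GGGCGG, bound by SP and KLF factors, stood in 52.7% against 46.2% and the E-box CACGTG in 9.46% against 7.84%. Promoters of the same gene were each counted. The 7 promoters with CACGTG came from 5 genes, overlapping promoters of Mrpl2 among them, so its small difference is not read as an excess. The 39 with GGGCGG came from 34 genes and the 29 with CCAAT from 26. For CCGGAAG, AAGATGGCG and GCATGCGC promoters and genes were equal in number (25, 8 and 7). Over all 32851 promoters, non-coding genes included, the shares were 8.86% for CCGGAAG, 1.40% for AAGATGGCG and 2.71% for GCATGCGC. Member promoters also held more CG pairs, with a median of 21.5 against 13, at a median GC content of 58.8% against 56.3%. A match is a description of letters and not a bound site.

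Stretches of 6 of these promoters in no annotated exon are printed 5′ to 3′ on the gene's strand, with matches to CCGGAAG and GCATGCGC (either strand) in capitals. They are shown for where the matches lie, in members at different levels; the stretches end 0 to 18 bases before the RefSeq start. Mrpl22 (chr11:58171541-58171660, plus strand) holds both motifs, Mrpl9 (chr3:94443198-94443317, plus strand) the NRF1 core on both strands in overlap, and Mrpl43 (chr19:45006443-45006557, minus strand) a pair of ETS matches. Mrpl52 (chr14:54426789-54426908, plus strand) is among the 10 highest members, Mrps27 (chr13:99344706-99344785, plus strand) is the lowest, and Mrpl20 (chr4:155802758-155802877, plus strand) is the highest and holds neither motif here.
Mrpl22: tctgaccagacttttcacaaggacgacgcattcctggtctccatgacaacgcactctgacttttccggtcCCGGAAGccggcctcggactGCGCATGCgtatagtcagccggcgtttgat
Mrpl9: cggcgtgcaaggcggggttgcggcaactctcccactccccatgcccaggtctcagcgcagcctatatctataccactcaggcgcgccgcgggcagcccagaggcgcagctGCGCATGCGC
Mrpl43: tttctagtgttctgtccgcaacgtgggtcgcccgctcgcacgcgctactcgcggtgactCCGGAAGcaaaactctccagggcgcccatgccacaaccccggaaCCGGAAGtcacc
Mrpl52: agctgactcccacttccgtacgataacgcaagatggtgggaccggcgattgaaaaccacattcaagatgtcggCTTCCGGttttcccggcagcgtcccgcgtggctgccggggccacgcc
Mrps27: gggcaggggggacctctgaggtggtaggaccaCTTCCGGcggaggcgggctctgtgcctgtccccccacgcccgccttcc
Mrpl20: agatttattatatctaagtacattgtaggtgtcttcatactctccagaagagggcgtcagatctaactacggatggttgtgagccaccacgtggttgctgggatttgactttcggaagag

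Levels with and without a motif differed little for some motifs and more for others, and none of these differences was tested. The levels are of whole genes, transcripts not annotated as coding included. Such transcripts led in both libraries in Mrps18c, Mrps14 and Mrpl3 of the genes with AGATAA. They also led in Mrps24 of those with TATAAA. Members with CCGGAAG (25 of 68 genes) had a median of 23.3 and 21.8 rescaled TPM and those without it 20.3 and 21.1. Members with GCATGCGC (7 genes) were lower in both libraries, with 16.0 and 16.3 against 22.4 and 24.1. Members with AGATAA (10 genes) were higher in both, with 36.0 and 32.0 against 19.2 and 18.9. So were those with TATAAA (5 genes), with 34.1 and 38.5 against 19.8 and 19.2, and those with CACGTG (5 genes), with 30.6 and 27.8 against 20.3 and 21.1. Members with GGGCGG (34 genes) had 23.1 and 27.4 against 17.0 and 20.2, and members with CCAAT (26 genes) 21.6 and 26.5 against 20.7 and 18.9. For AAGATGGCG (8 genes) the libraries differed in direction, with 15.1 and 24.8 against 21.6 and 21.3. The lowest member, Mrps27, has both CCGGAAG and AAGATGGCG, and Mrpl20, the highest, has neither in its promoter. The genes of the factors were themselves expressed, named here after their values were seen: Nrf1 stood at 2.83 and 2.78 TPM and Gabpa, the DNA-binding subunit of GABP, at 1.14 and 1.20. The members lie on 17 chromosomes, none of them on X or Y. Chromosome 11 holds 11 of them (14.3%), against 7.57% of all nuclear protein-coding genes.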

How the data were processed

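Gene and transcript tables of 2 total RNA libraries were used. Each library was quantified on its own against mm10 and GENCODE M4, per the deposited file descriptions. The aligner and quantifier, and whether strand was used, are not given in the sources. The deposited expected counts estimate the reads of each gene or transcript, per the file headers. The deposited TPM (maximum likelihood and posterior mean) is scaled over all entries, mitochondrial rRNA included, per the file headers, so a shift in rRNA moves every other value. The deposited isoform percent is a transcript's percent of its gene's TPM, and lengths are in bases, per the file headers.

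GENCODE M21 (GRCm38) gave names, types and 1-based coordinates by Ensembl identifier without version, which matched 42462 genes; types can differ from those of M4. TPM was rescaled over nuclear protein-coding genes, and a pseudocount of 1 was added before log2, which understates the difference of low genes. Between-library ratios used genes averaging 20 expected counts or more and the median as centre; over 2-fold counted as apart. The ratio script was tested on simulated data. Expected counts were rounded for binomial intervals, edgeR and DESeq2, which served only to scale counts. Head-to-head neighbours, exon overlaps, 25-mers and promoter motifs were computed from M21 and RefSeq.

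Any member could be named, with values per library for the 10 highest and 6 lowest by mean TPM, those over 2-fold apart, those whose top transcript was not coding or changed, and selected others; the members, the lists, the places in the ribosome, the motifs and the printed promoters were chosen with earlier results of these data known. No test was made: there is 1 group. Tools were edgeR 4.0.16 and DESeq2 1.42.0 under R 4.3.3, and pandas 2.3.3, scipy 1.17.1, numpy 2.4.6 and matplotlib 3.10.9 under Python 3.11.15.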

Additional observations from a re-analysis of the deposited data

How the results depend on the processing

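The members stayed below respiratory chain and cytosolic ribosomal protein genes under every alternative run. The log2 gap to the respiratory chain was -2.01 with posterior mean TPM and -2.20 with a pseudocount of 0.1. It was -1.16 on the deposited TPM with a pseudocount of 1, and -1.52 on counts not scaled by length. The gap to cytosolic ribosomal proteins was -4.78 with posterior mean TPM, -3.58 on the deposited TPM with a pseudocount of 1 and -3.90 on such counts. The difference between members without and with a bacterial counterpart turned to 0.023 with posterior mean TPM and 0.024 on such counts. On the deposited TPM with a pseudocount of 1 that difference was -0.019. The small subunit median was 0.58 with posterior mean TPM, 0.443 with subunits by structure and 0.485 over genes with 20 counts or more. The members' share of TPM was 0.243% with posterior means. At a minimum of 2 TPM 3 members were detected in both libraries, against 7% of all nuclear protein-coding genes, and at 0.5 TPM 34, against 19.8%.

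At a limit of 1.5-fold, 27 members were apart. Over 2-fold apart was 1 member on the deposited TPM with a pseudocount of 1 (0.353% of all genes). That pseudocount lies above the member medians on that scale, 0.47 and 0.57 TPM, and shrinks the ratios of low genes. With 100 counts or more, 0 of the 13 members left were over 2-fold apart. TMM and DESeq2 scaling gave 12 (17.2% and 17.3% of all). With 100 counts or more, 4 intervals left out the median ratio, and 12 members had a coding transcript on top. With either library alone, the members at 1 TPM numbered 15 to 22 (22 without replicate 1) and at 1 rescaled TPM 76 to 77, and those with a coding transcript on top 57 to 58. The large subunit median then ranged from 0.49 to 0.715, the small from 0.46 to 0.47, large minus small from 0.09 to 0.58, and the difference by bacterial counterpart from -0.06 to -0.05. The gaps ranged from -2.18 to -2.12 and from -5.04 to -4.94, and the share from 0.229 to 0.238%. Under the other settings large minus small lay between 0.10 and 0.53. Replicate 1 alone turned sign with posterior mean TPM (-0.10) and with subunits by structure (-0.01), and on counts not scaled by length 0.53 ± 0.14 exceeded the spread. No paired analysis was possible because there is 1 group. With 2 to 447 counts per member, depth limits single genes; the cause of each change was not tested.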
